A study of Mus musculus with 4 samples.

Results

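The E proteins, the Id proteins and the Zeb repressors are 3 small families of transcription regulators that meet at the same short DNA word, the E-box CANNTG (N is any base). The 8 genes described here are Tcf3, Tcf4 and Tcf12 (E proteins), Id1, Id2 and Id3 (Id proteins) and Zeb1 and Zeb2 (Zeb repressors). They were taken by name from the gene models of GENCODE mouse release 21, and all 8 were found among 21938 protein-coding genes. Chromatin accessibility was measured by DNase-seq, in which the enzyme DNase I cuts DNA that is not packed in nucleosomes, and a pile of cuts is called as a peak. The cells were naive CD8 T lymphocytes (CD8-positive, resting, alpha-beta) from female, virgin B6CASTF1/J mice aged 2 months, a hybrid between the B6 and CAST strains. The deposit holds 4 libraries, labelled biological replicates 1 to 4, with no treatment and no second group, so nothing is compared between conditions. Each library has its own biosample, but all 4 carry 1 donor identifier, so the spread between libraries may be in part technical.

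E proteins bind E-boxes as pairs and switch on genes of lymphocyte development. Id proteins have the pairing domain without the DNA-binding part, so they hold E proteins in pairs that cannot bind DNA. Zeb proteins are zinc finger repressors that bind the E-box form CAGGTG and recruit corepressors. In CD8 T cells, Id3 and Zeb1 are known from naive and memory cells, and Id2 and Zeb2 from effector cells.

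The libraries differed in depth, and 2 of them in some cell marker values. The peak lists held 69413, 70552, 51121 and 20647 peaks in replicates 1 to 4, and the step between low peak heights gave 109, 62.9, 91.5 and 24.3 M tags. T cell marker genes had a promoter peak in 10, 10, 10 and 5 of 11 genes, with Trac at none in any library. Of all protein-coding genes, 58.4%, 58.5%, 56.7% and 46.3% had one, so the T cell count of replicate 4 was near the share of all genes. Cd8a, which encodes a chain of the CD8 receptor, had a peak in replicates 1 and 2 and none in replicates 3 and 4. Cd8b1 and Runx3 had one in all 4. B cell markers were called in 7, 7, 9 and 6 of 11 genes, to be read against the same shares of all genes. Their summed relative promoter height was 2.1, 2.69, 4.63 and 5 in replicates 1 to 4, with Vpreb3 among those at none throughout. Replicates 3 and 4 therefore stand apart in Cd8a and in the B cell sum, and replicate 4 in depth as well. The part of depth in these marker values was not tested. The part of replicates 3 and 4 in the results was not tested except where a value without them is given. In such bulk libraries, fewer cells with an open site and less opening per cell cannot be told apart.

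Sites are overlapping peaks merged across libraries, and consensus sites are those called in at least 3 of 4. A locus is the gene model with 25 kb added at either end. A promoter site lies within 1 kb of an annotated transcript start, and other sites are distal. Offsets are counted from the gene's 5' end in the direction of the gene, + meaning downstream. Relative height is a peak's height divided by the library's median at sites called in all 4 libraries, so 1 is a typical strong site.

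The tallest distal sites of the 8 loci lay at Id3, Id2, Tcf3 and Tcf12, and their sequences are shown so that the words inside and outside their footprints can be seen. A footprint is a short stretch inside an accessible site that is cut less than its surroundings. Sequences are from RefSeq's mouse assembly GRCm38 (mm10), 5' to 3' on the strand of the gene. Capitals mark bases inside a footprint in at least 3 libraries.
Id3 distal site at +20.2 kb, chr4:136163601-136163780, plus strand: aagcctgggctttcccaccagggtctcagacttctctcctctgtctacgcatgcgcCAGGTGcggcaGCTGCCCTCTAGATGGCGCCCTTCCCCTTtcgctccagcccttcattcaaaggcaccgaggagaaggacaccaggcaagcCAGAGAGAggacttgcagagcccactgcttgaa
Id2 distal site at +4.7 kb, chr12:25092341-25092560, minus strand: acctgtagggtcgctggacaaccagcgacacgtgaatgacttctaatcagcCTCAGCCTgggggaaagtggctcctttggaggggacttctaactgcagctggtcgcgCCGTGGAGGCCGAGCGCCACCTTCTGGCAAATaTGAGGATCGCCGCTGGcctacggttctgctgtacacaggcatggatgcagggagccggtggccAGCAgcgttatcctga
Tcf3 distal site 12.8 kb upstream, chr10:80446301-80446600, minus strand: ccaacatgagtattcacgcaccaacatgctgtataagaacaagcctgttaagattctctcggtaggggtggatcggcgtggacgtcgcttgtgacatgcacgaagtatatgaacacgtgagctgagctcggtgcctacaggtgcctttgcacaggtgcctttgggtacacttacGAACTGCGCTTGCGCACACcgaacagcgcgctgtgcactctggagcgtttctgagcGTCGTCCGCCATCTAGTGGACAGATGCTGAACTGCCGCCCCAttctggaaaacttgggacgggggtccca
Tcf12 distal site at +279.9 kb, chr9:71831861-71832080, minus strand: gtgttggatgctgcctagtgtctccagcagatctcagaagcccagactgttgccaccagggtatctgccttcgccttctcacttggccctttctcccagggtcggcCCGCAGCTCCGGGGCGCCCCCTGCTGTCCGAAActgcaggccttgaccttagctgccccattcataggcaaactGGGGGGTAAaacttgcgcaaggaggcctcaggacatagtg
Id3 distal site at +16.8 kb, chr4:136160201-136160420, plus strand: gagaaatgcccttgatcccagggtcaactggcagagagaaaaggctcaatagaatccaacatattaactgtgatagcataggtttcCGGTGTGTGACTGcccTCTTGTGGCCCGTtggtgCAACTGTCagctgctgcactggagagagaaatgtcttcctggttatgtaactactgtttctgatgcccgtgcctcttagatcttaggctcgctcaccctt
Id3 distal site at +4.4 kb, central part, chr4:136147791-136148090, plus strand: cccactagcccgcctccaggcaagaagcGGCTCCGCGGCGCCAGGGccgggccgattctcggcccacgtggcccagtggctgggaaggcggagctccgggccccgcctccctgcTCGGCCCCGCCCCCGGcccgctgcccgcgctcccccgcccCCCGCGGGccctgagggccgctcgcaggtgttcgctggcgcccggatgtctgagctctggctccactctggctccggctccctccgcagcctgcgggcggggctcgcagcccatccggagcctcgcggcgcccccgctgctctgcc
Tcf12 distal site 21.3 kb upstream, central part, chr9:72133041-72133340, minus strand: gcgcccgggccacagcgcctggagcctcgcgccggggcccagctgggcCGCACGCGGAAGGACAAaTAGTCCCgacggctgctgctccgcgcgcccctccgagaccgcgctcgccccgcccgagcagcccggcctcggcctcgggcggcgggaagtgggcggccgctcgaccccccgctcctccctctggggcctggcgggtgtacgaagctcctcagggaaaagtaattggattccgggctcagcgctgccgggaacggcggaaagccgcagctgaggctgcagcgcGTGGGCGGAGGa

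In the Id3 site at +20.2 kb the CAGGTG word stands whole in a footprint and CAGCTG in part. A CTCF-type word follows within the same footprint as the latter. CTCF is a zinc finger protein that holds chromatin loops. A CTCF-type word here is a stretch within 1 letter of a CTCF consensus of 12 letters, on either strand, a search that was chosen after the footprints were seen. Such a word lay wholly inside footprints in the Id2 site at +4.7 kb, the Tcf3 site 12.8 kb upstream and the Tcf12 site at +279.9 kb as well. The Id3 site at +16.8 kb has a CTCF-type word only partly inside a footprint. The Tcf12 site 21.3 kb upstream has none in its central 150 bp.

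All 8 genes had a consensus site at an annotated start, against 55.1% of all protein-coding genes. With the 5' end of the gene model alone 7 of 8 had a site, against 50.7%, and Zeb2 was the exception. A promoter peak in all 4 libraries was present for 7 of 8 genes, again without Zeb2, against 46%. By library, 8, 8, 8 and 7 genes had a promoter peak in replicates 1 to 4, against 58.4%, 58.5%, 56.7% and 46.3% of all genes. The share differs with the number of annotated starts: 25.1% of genes with 1 start had a consensus site, 42.7% of those with 2 to 3, 88.3% of those with 10 to 19 and 85.8% of those with at least 20. Tcf3 and Zeb1 have 11 starts each, Tcf12 20, Zeb2 29 and Tcf4 58, so these 5 genes are read against the higher shares. Id1 has 1 start, and Id2 and Id3 have 3 each.

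**Figure D1:**
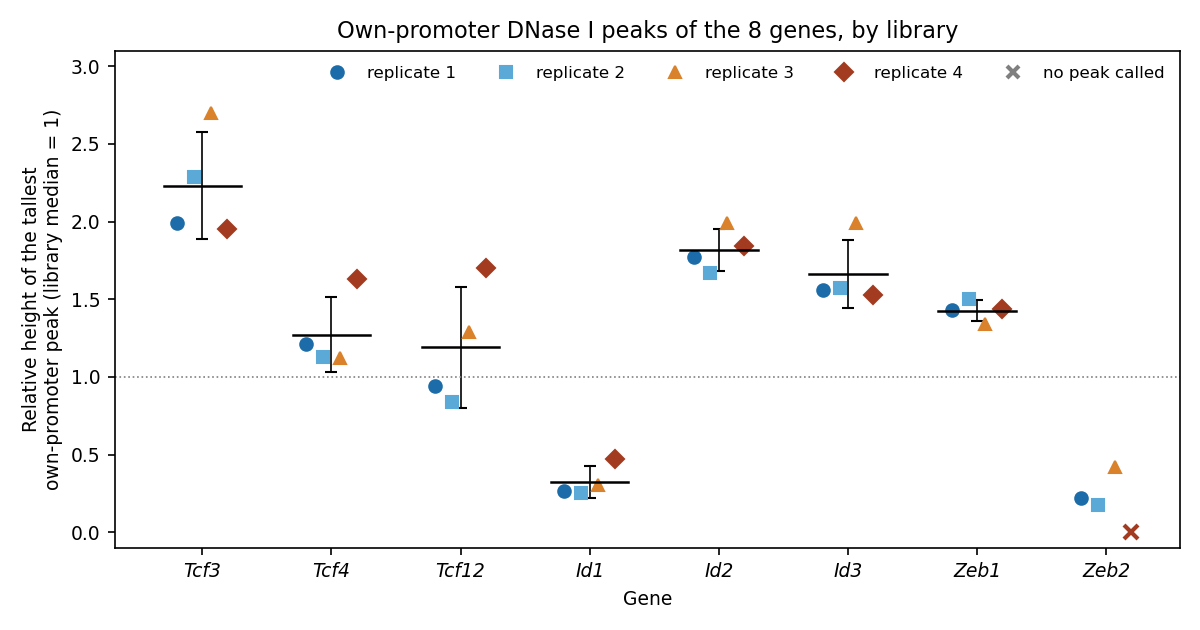
Relative height of the tallest own-promoter peak (y axis, library median of shared sites at 1) for the 8 genes (x axis) in each library; bars give the mean and SD over 4 libraries where all 4 have a peak, and crosses mark no peak. Id1 and Zeb2 lie under 0.5 in every library, and the other 6 genes at 0.836 or higher.

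The order of mean promoter height was Tcf3, Id2, Id3, Zeb1, Tcf4, Tcf12, Id1 and then Zeb2. Tcf3 stood above Id2 in 4 of 4 libraries, by 0.411 on average (SD of the differences 0.295). Id2 stood above Id3 in 3 of 4 libraries, by 0.158 (SD 0.138). Id3 stood above Zeb1 in 4 of 4 libraries, but by 0.234 with an SD of 0.278, since the gap was widest in replicate 3. Zeb1 stood above Tcf4 in 3 of 4 libraries and Tcf4 above Tcf12 in 2 of 4. These 3 steps were smaller than the SD of their differences. The step from Tcf12 to Id1 was 0.869 (SD 0.295) and held in 4 of 4 libraries. Id1 stood above Zeb2 in 3 of 4 libraries, by less than the SD of the differences. The height is that of the tallest peak over all starts of a gene, so genes with many starts have more chances of a tall peak.

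Among the E proteins, Tcf3, which encodes E12 and E47, had the tallest promoter. Its peak was 1.99, 2.29, 2.7 and 1.95 in relative height in replicates 1 to 4 (mean 2.23 ± 0.346 SD, n = 4). It stood at the 65.2 to 86.2 percentile of called promoters. The site lies at the 5' end of the gene (ENSMUSG00000020167.14, chr10:80409514-80433647, minus strand) and held 12, 15, 14 and 7 footprints. Of the 11 annotated starts, 5 lie within 1 kb of a site called in all 4 libraries. A weaker site in the first intron, at +0.5 kb, was called in replicates 1 to 3 only (0.249, 0.152 and 0.275).

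Tcf12 (ENSMUSG00000032228.16, chr9:71842688-72111871, minus strand), which encodes HEB, was the E protein whose promoter differed most between libraries. Its height was 0.944, 0.836, 1.29 and 1.7 (mean 1.19 ± 0.391 SD, n = 4), so replicates 3 and 4 lay above replicates 1 and 2 with no overlap. In replicate 4 the ratio to the other libraries exceeded that of 88.5% of promoter sites called in all 4 libraries, and in replicate 3 that of 66%. By rank among all called promoters of a library, the Tcf12 promoter stood at the 41.3, 39, 48.9 and 55.6 percentile. A second promoter site at +0.6 kb read 0.524, 0.404, 0.598 and 1. The distal site 21.3 kb upstream, a CpG-rich region, read 0.867, 0.524, 1.2 and 1.56 and had the same split between libraries. Its ratios in replicates 3 and 4 exceeded 92.1% and 92.3% of distal sites called in all 4 libraries. The B cell marker sum moved with these values, being 4.63 and 5 in replicates 3 and 4 against 2.1 and 2.69. The T cell marker sum was 8.99, 7.38, 6.71 and 3.98, the CD8 marker sum 3.56, 3.82, 2.52 and 2, and Zbtb7b, a gene of the CD4 lineage, read 0.251, 0.358, 0.746 and 1.12. Sums over the cofactor, partner and rival, and myeloid lists were also higher in replicates 3 and 4, by smaller fractions than the B cell sum. Listed cofactors of these regulators summed to 14.1, 14.4, 17 and 18.7, partners and rivals to 22.5, 22.6, 25.3 and 24.8. Myeloid markers summed to 1.41, 1.12, 1.7 and 1.75. Known targets (11.2, 11.1, 11.4 and 10.2) did not split so, nor did NK cell, plasmacytoid dendritic cell and stromal markers. The part of any of these in the Tcf12 values was not tested.

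Tcf4, which encodes E2-2, had 2 separate start regions open in every library. The first, at +1.1 kb, read 1.21, 1.13, 1.12 and 1.63 (mean 1.27 ± 0.242 SD, n = 4), and only replicate 4 lay well above the rest. The second lies at +250.0 kb in a gene of 346 kb (ENSMUSG00000053477.17, chr18:69343356-69689079, plus strand), over a start that gives shorter transcripts. It read 0.569, 0.684, 0.746 and 0.719 (mean 0.679 ± 0.0779 SD, n = 4). In all, 24 of the 58 annotated starts lay within 1 kb of a consensus site and 14 within 1 kb of a site called in all 4 libraries. The sequence within 500 bp of the 5' end is poor in CpG (observed over expected 0.276), and of 1552 genes with a like 5' end only 10.9% had a consensus site there. The site at +1.1 kb lies beyond that stretch and is itself rich in CpG (observed over expected 0.893, 63.8% GC).

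Of the Id genes, Id2 and Id3 had promoters well above that of Id1. Id2 read 1.77, 1.67, 1.99 and 1.84 (mean 1.82 ± 0.131 SD, n = 4), a narrow spread. Its tallest site lies at +1.0 kb, 69 bp before a start inside the gene model (ENSMUSG00000020644.9, chr12:25093799-25097140, minus strand). A weaker site 1.4 kb upstream of the 5' end of the model read 0.422, 0.383, 0.436 and 0.632. Id3 (ENSMUSG00000007872.3, chr4:136143497-136145755, plus strand) read 1.56, 1.57, 1.99 and 1.53 (mean 1.66 ± 0.22 SD, n = 4), with replicate 3 above the other three. Both genes thus had promoters above the typical shared site in all 4 libraries. Among called promoters Id2 stood at the 61.3 to 70.7 percentile and Id3 at the 48.7 to 70.8 percentile.

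Id1 (ENSMUSG00000042745.9, chr2:152736251-152737410, plus strand) read 0.267, 0.253, 0.306 and 0.474 (mean 0.325 ± 0.102 SD, n = 4). This placed it at the 4.38 to 16.1 percentile of called promoters. It had a single start, with a merged site over it called in all 4 libraries. No consensus promoter site remained at Id1 when replicate 4 was left out, or with the shorter peak lists. A second site 1.0 kb upstream was called in replicates 1, 2 and 4 (0.191, 0.253 and 0.404) and gave the tallest peak in replicate 2. No footprint was called anywhere in the Id1 locus in replicates 3 and 4.

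The 2 Zeb genes had unlike promoters, of middling height at Zeb1 and low at Zeb2. Zeb1 read 1.43, 1.5, 1.34 and 1.44 (mean 1.43 ± 0.0669 SD, n = 4), the narrowest spread of the 7 genes called in all 4 libraries. It stood at the 44.8 to 60.8 percentile of called promoters. Its site covers the 5' end (ENSMUSG00000024238.15, chr18:5591860-5775467, plus strand), and a second site at +1.5 kb read 0.942, 0.598, 0.643 and 0.895. Of 11 starts, 10 lay within 1 kb of a consensus site. Zeb1 stood above the highest value of Zeb2 in every library.

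Zeb2 (ENSMUSG00000026872.17, chr2:44983632-45117395, minus strand) had no consensus site at its 5' end. Its only peak there was in replicate 1, at 0.167. The sequence at that end holds CpG at 0.707 of the expected number and is 54% GC, and of 2554 protein-coding genes with a like 5' end 86.4% had a consensus site. The 1 consensus site of the gene lies at +7.3 kb in a coding exon, 55 bp from an alternative start, and read 0.22, 0.177 and 0.423 in replicates 1 to 3 with no peak in replicate 4. Of all sites with a like height in replicate 1, 16.1% were called in replicate 4. Within 1 kb of the consensus site lay 13 of the 29 annotated starts. Intervals with a cut rate within 1 kb of the 5' end covered 136 bp in replicate 1 and 0 in replicates 2 to 4.

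Promoter sequences are shown for the tallest E protein promoter, the one that differed most between libraries and the weakest Id promoter. Each is the longest stretch of the site that no annotated exon covers, or its central part, with capitals as before.
Tcf3 promoter, chr10:80433814-80434113, minus strand: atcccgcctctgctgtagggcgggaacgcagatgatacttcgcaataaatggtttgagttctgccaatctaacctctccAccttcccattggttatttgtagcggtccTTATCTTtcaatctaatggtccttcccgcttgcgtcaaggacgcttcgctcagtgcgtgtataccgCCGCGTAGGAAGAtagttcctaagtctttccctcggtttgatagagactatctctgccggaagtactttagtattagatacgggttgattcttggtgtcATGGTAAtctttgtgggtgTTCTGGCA
Tcf12 promoter, chr9:72111872-72112080, minus strand: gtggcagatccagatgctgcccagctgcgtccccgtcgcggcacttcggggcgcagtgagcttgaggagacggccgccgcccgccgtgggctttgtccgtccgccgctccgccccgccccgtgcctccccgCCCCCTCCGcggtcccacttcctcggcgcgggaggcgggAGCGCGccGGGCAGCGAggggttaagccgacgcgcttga
Id1 promoter, chr2:152736081-152736250, plus strand: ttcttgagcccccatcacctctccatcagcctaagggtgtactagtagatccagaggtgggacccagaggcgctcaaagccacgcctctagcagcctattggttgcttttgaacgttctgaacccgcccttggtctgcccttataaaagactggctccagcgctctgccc
The stretch shown for Tcf3 held 36 bases that were footprinted in at least 3 libraries, in 5 runs, and that for Tcf12 held 24 in 3 runs. The Id1 stretch held none, and could hold none, since no footprint was called at the Id1 locus in replicates 3 and 4. The whole Id1 site held 2 and 3 footprints in replicates 1 and 2.

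Across the 8 loci there were 101 sites and 37 consensus sites, of which 19 lay at the genes' own starts, 4 at starts of other genes and 14 were distal. The 4 at other genes' starts were all in the window of Tcf3. Consensus sites numbered 8 at Tcf3, 7 at Tcf4, 6 at Tcf12, 2 at Id1, 4 at Id2, 6 at Id3, 3 at Zeb1 and 1 at Zeb2. The median was 5 against 3 over all protein-coding genes, and the median of distal sites 1.5 against 1. Among genes with a window of like length, Tcf3 had more sites than 90.5%, Id3 more than 81% and Zeb2 more than 15.7%. Of the 37 sites, 22 were called in all 4 libraries (59.5%, against 42.6% of all consensus sites). These 2 shares mix classes, as distal sites made up 37.8% of the 37 and 53.5% of all consensus sites. By class, replicate 4 called 16 of 23 promoter sites and 7 of 14 distal sites, against 63.5% and 26.7% of the others.

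**Figure D2:**
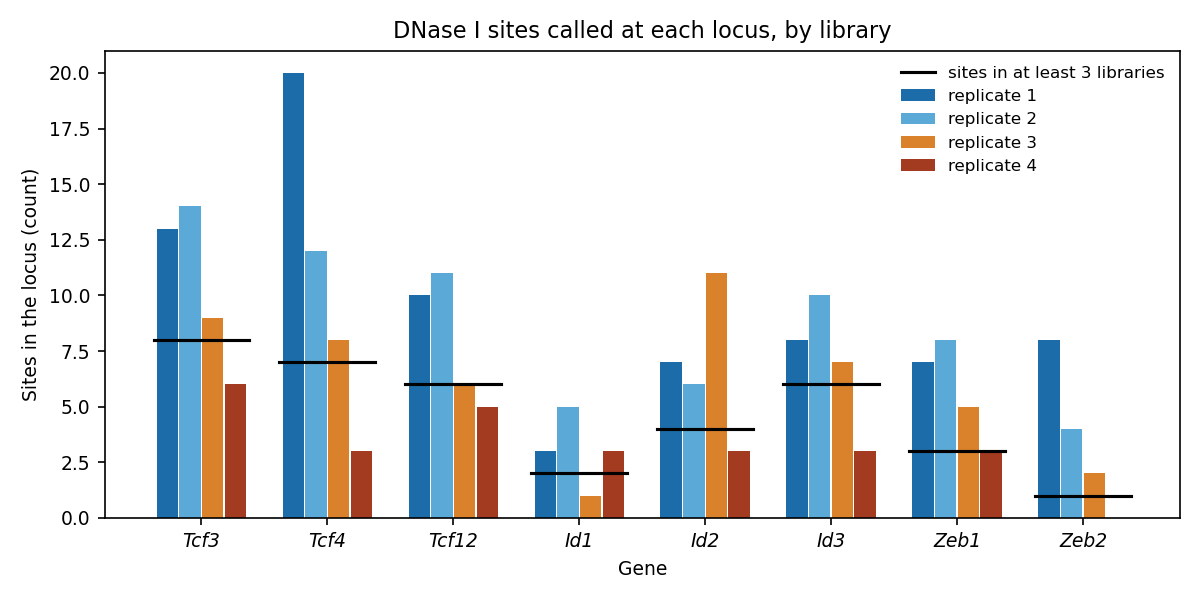
Number of sites called at each locus (y axis, count) in each library (bars) and number called in at least 3 libraries (black lines). Replicate 4 has 6 or fewer sites at every locus and none at Zeb2.

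The libraries contributed 76, 70, 49 and 26 of the 101 sites. Sites found in replicates 1 and 2 only numbered 17, and none was found in replicates 3 and 4 only (13.3% and 0.0943% of all merged sites). Sites of a single library numbered 40 of the 101, against 35.2% of all merged sites. At Zeb2, 3 of the sites of replicates 1 and 2 lie past the 3' end of the gene.

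Id3 had the richest distal neighbourhood of the small genes, with 4 distal consensus sites downstream. The site at +20.2 kb read 1.6, 1.58, 1.54 and 1.14, as tall as the Id3 promoter in replicates 1 and 2 and lower than it in replicates 3 and 4. The site at +4.4 kb read 1.14, 1.01, 1.22 and 1.47. The site at +16.8 kb read 0.898, 1.1 and 0.749 in replicates 1 to 3 and was not called in replicate 4, where 63.1% of sites of like height were called. The site at +6.4 kb read 0.433, 0.253 and 0.375 and was also missing in replicate 4. By mean height, the sites at +20.2 and +4.4 kb stood at the 97.2 and 95.3 percentile of all 22077 distal consensus sites.

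Id2 had 1 distal consensus site, at +4.7 kb and past the 3' end of the gene. It read 1.06, 1.23, 1.17 and 1.16 (mean 1.16 ± 0.0691 SD, n = 4) and stood at the 94.7 percentile of distal sites. All 4 libraries thus gave nearly the same value. It held 5, 5, 4 and 0 footprints.

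At Tcf3 the site 12.8 kb upstream read 0.922, 1.06, 0.942 and 1.42 and stood at the 94 percentile. A second one, in an intron of the neighbouring gene Uqcr11, read 0.356, 0.474 and 0.409 in replicates 1 to 3 with no peak in replicate 4. At Tcf4 the 3 distal sites lie in introns. The site at +164.6 kb read 0.593, 0.771, 0.619 and 0.579, and those at +194.3 and +115.1 kb were called in replicates 1 to 3 only. At Tcf12 the site at +279.9 kb, past the 3' end, read 0.607, 0.579, 0.687 and 0.877, and the intronic site at +14.6 kb 0.307, 0.236 and 0.244 in replicates 1 to 3. Id1, Zeb1 and Zeb2 had no distal consensus site.

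**Figure D3:**
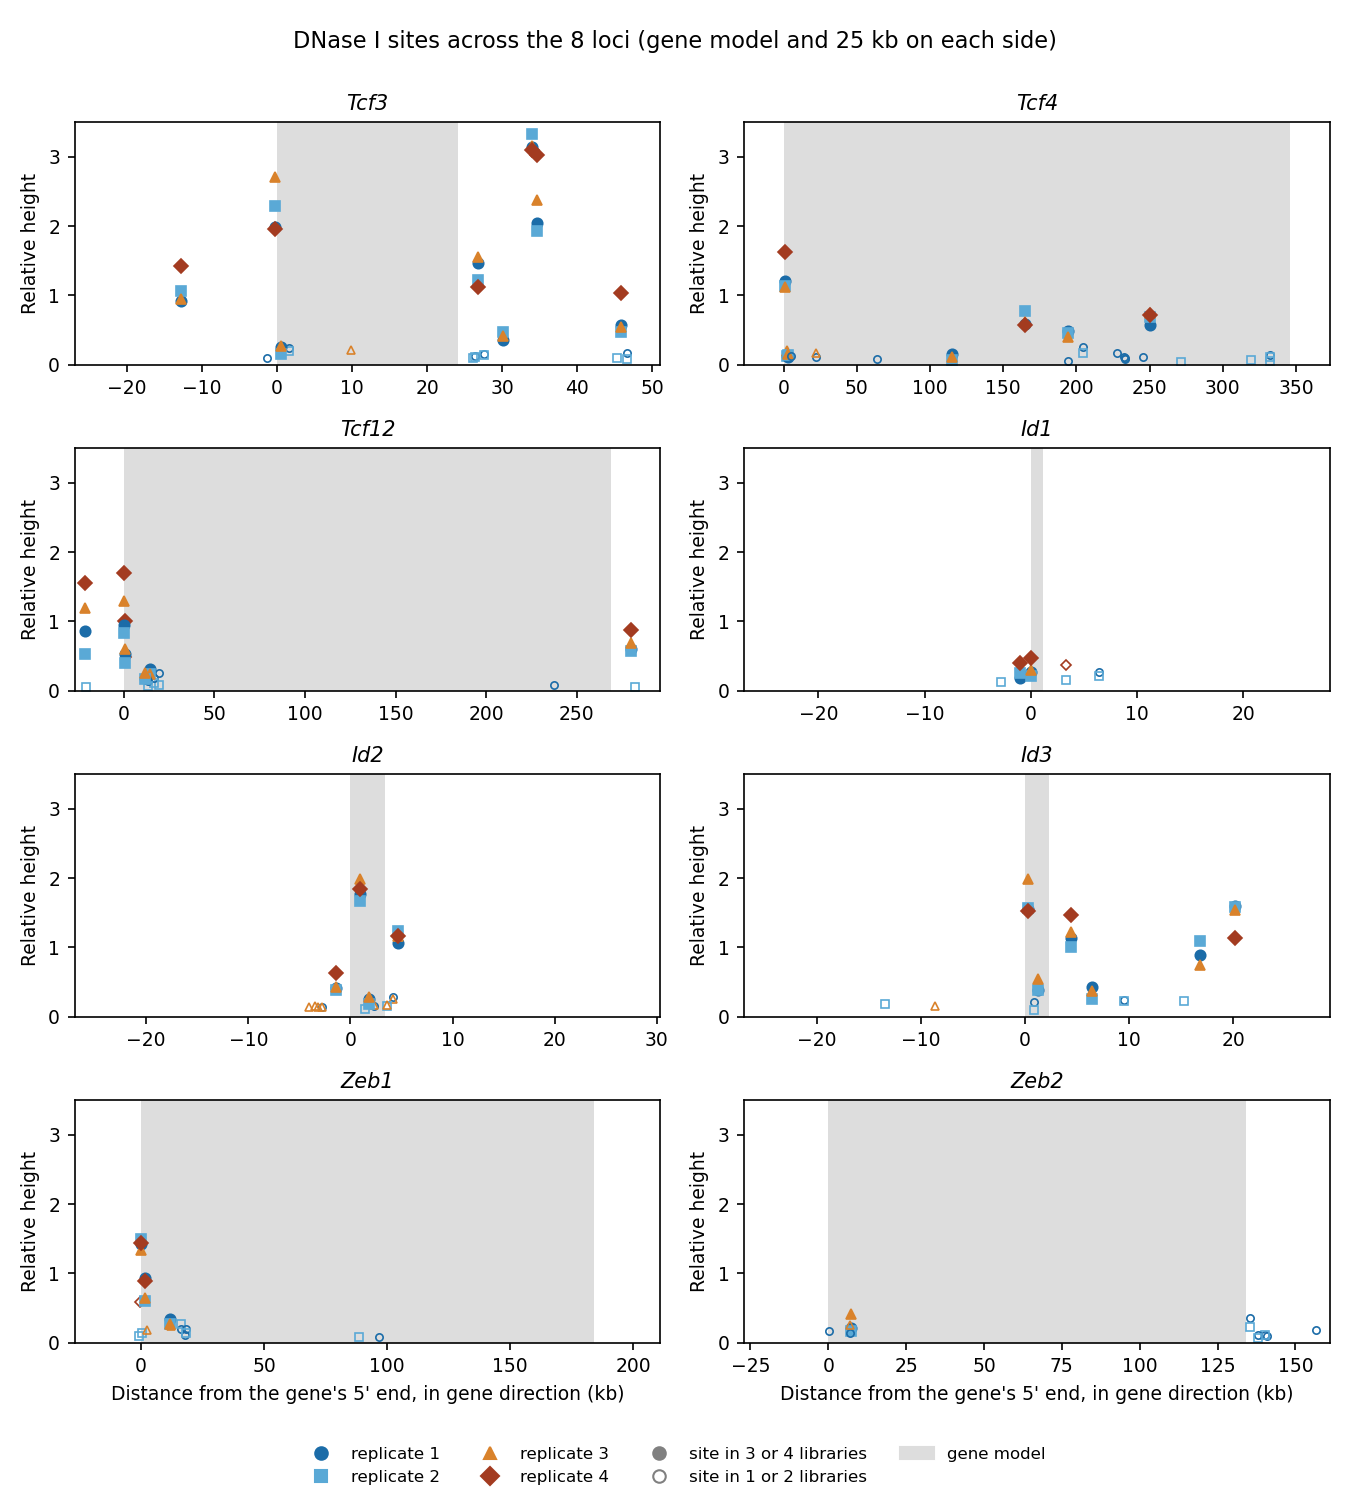
Relative height (y axis) of every site against its distance from the gene's 5' end in kb (x axis), 1 panel per gene and 1 marker per library, with the gene model in grey. Filled markers are sites in 3 or 4 libraries; at Id3 the tall distal sites lie downstream, at Zeb1 the tall sites lie at the 5' end, and at Zeb2 no site passes 0.423.

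Distal sites of the 8 loci stood above other distal sites in the 3 libraries where this could be computed. Their median relative height was 0.6, 0.551 and 0.653 in replicates 1 to 3, against 0.353, 0.328 and 0.306 for all other distal consensus sites. The log2 difference was 0.76, 0.75 and 1.09 (mean 0.87 ± 0.19 SD, higher in 3 of 3). The exact sign-flip permutation test over 3 libraries gave p = 0.25 (two-sided), the smallest it allows. In replicate 4, 7 of 14 of these sites were called against 26.7% of the others, whose median was then 0. With sites of at least 2 libraries the difference was -0.13, so its direction rests on how sites were kept. With replicates 1 and 2 alone it was 0.22.

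Promoter and distal sites of the 8 loci had close median heights in 3 libraries. The medians were 0.569 and 0.6 in replicate 1, 0.476 and 0.551 in replicate 2, and 0.598 and 0.653 in replicate 3. In replicate 4 they were 0.895 and 0.289, since 7 of 14 distal sites had no peak there. The log2 difference was 0.30 ± 0.88 on average (SD, n = 4, higher in 1 of 4), with p = 1.0 by the exact sign-flip permutation test (two-sided; 4 libraries cannot pass the usual threshold). Without replicate 4 it was 0.01, and it was 0.96 with sites of at least 2 libraries, 0.86 with the shorter lists and 0.77 with promoters of 0.5 kb, so the likeness of the medians rests on how sites were kept and classed.

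**Figure D4:**
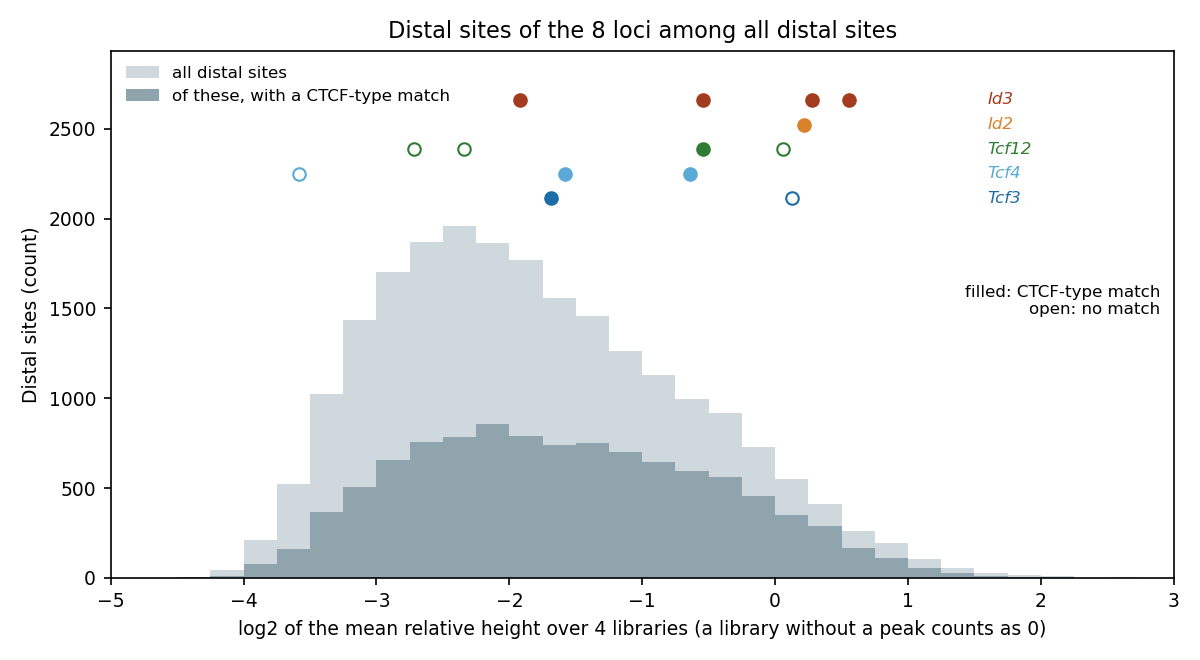
Distribution of all 22077 distal consensus sites (grey bars, count) by log2 of mean relative height, the darker part holding a CTCF-type word, with the 14 distal sites of the 8 loci as circles above (filled with such a word, open without). Sites of Id3, Id2, Tcf3 and Tcf12 reach the upper tail, that of Tcf12 21.3 kb upstream at the 93.2 percentile.

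A CTCF-type word stood in the central 150 bp of 9 of the 14 distal sites (64.3%), against 47.3% of all distal consensus sites. With no letter off it was 3 of 14 (21.4%) against 19.7%. None of the 23 promoter sites held one in that window, against 17.9% of all promoter sites. Over promoter and distal sites together the share was 24.3% against 33.6%. The 9 sites had a median relative height of 0.607, 0.771, 0.687 and 0.579, and the other 5 had 0.307, 0.236, 0.261 and 0. Over all distal sites the medians in replicates 1 to 3 were 0.404, 0.417 and 0.347 with the word and 0.313, 0.265 and 0.278 without it. The words at the Tcf3 distal site 12.8 kb upstream and at the Id2 promoter site 1.4 kb upstream lie outside that window and are not counted. Footprints at the 8 loci held a CTCF-type word in 7.31%, 9.19%, 6.4% and 4.44% in replicates 1 to 4. Among all footprints it was 8.95%, 10.3%, 7.86% and 5.81%, so the share at the 8 loci was lower in each library. These shares describe letters and say nothing of binding.

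E-boxes CANNTG were present in the central 150 bp of 21 of the 37 consensus sites (56.8%, 95% Wilson interval 40.9 to 71.3% for counting error only), against 52.4% of all consensus sites. In distal sites they were in 11 of 14 (78.6%) against 61.8%. The form CAGCTG was in 5 of 14 distal sites (35.7%), at Tcf4, Tcf12, Id2 and Id3, against 11.1% of all distal sites. The form CAGGTG was in 3 of 14 (21.4%) against 17.7%. All were searched on both strands, and every CAGCTG and CAGGTG also counts as CANNTG. In promoter sites CANNTG was in 43.5% against 41.7%, CAGCTG in 8.7% against 8.43%, and the KLF-type word GGGNGG in 73.9% against 66.2%.

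Footprints at the 8 loci numbered 219, 185, 172 and 45 in replicates 1 to 4. Tcf3 had the most in every library, with 54, 45, 46 and 21, and Zeb2 the fewest or next to fewest, with 8, 5, 3 and 0. CANNTG lay in 11%, 9.19%, 6.4% and 6.67% of them, against 8.74%, 9.65%, 7.84% and 5.42% of all footprints. The shares of CANNTG were thus near those of all footprints. CAGCTG lay in 4, 3, 2 and 0 footprints, or 1.83%, 1.62%, 1.16% and 0%, against 1.16%, 1.37%, 1.14% and 0.646% of all footprints. CAGGTG lay in 2, 1, 2 and 0 footprints, or 0.913%, 0.541%, 1.16% and 0%, against 1.95%, 2.23%, 1.84% and 1.15% of all footprints, so its share was lower in each library, on these few footprints.

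The deposited cut-rate intervals, each with a p-value or q-value under 0.05 for its rate of cuts, numbered 18988, 14486, 15396 and 4131 at the 8 loci. The Tcf3 locus carried 90.7, 76.6, 67.3 and 39.6 bp of them per kb of window, which placed it at the 93.1 to 98.6 percentile of protein-coding loci. Its window also takes in open starts of other genes. Id2 and Id3 lay at the 75 to 98 percentile. Zeb2 carried 9.71, 4.66, 1.66 and 0 bp per kb, against a median locus of 23.1, 20.9, 18.5 and 5.49, and lay at the 25 to 33 percentile. Tcf4 and Zeb1 lay below the median locus in every library.

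Other genes of the E-box circuit were taken from lists of partners and rivals, cofactors and known targets. Of 24 partners and rivals, 15 had a consensus promoter site, and of 15 cofactors 13, against 55.1% of all protein-coding genes. The highest were Mxd1 (2.73, 3.05, 3.21 and 3.49), a partner of Max, then Mnt and Tfeb. Bhlhe41, Lyl1, Msc, Snai2, Twist1 and Twist2 were without a promoter peak throughout. The highest of the cofactors was Cbfa2t2, a corepressor (2.79, 3.06, 2.69 and 2.65), then Ep300, a coactivator of E proteins, and Hdac1. Runx1t1 had none.

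Of 19 known targets of E proteins or Zeb proteins, 12 had a consensus promoter site, close to the 55.1% of all genes. Socs3 (2.68, 3.24, 2.13 and 2), Itga4 and Gfi1 were the highest. Cd4, Cxcr5, Ptcra, Rag1 and Rag2 were among those that had no peak at a start in any of the 4 libraries. Rag1, Rag2 and Ptcra act in thymocytes, and Cd4 marks another T cell lineage. Il7r, the receptor for the survival cytokine of naive T cells, read 0.522, 0.322 and 0.395 in replicates 1 to 3.

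The genes whose promoter heights over the 4 libraries were most like each member's were found among 10081 genes called in all 4, by Euclidean distance of log2 height. They were B9d1 (distance 0.10) and Fancf for Tcf3, Pomt1 (0.07) and Tex30 for Tcf4, and Mcl1 (0.06) and Pag1 for Tcf12. For the Id genes they were Gusb (0.06) and Rnd1 for Id1, Bzw1 (0.06) and Luc7l3 for Id2, and Rps25 and Trappc4 (0.06 each, with the same values) for Id3. For Zeb1 they were Inka1 and Gm10961 (0.08 each). Mcl1 read 0.958, 0.853, 1.33 and 1.74, the same split of libraries as Tcf12. With 4 libraries and this many genes, near matches are found for nearly any pattern, and none was read as a link.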

How the data were processed

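DNase-seq of 1 group, naive CD8 T cells, was deposited as 4 libraries on mm10, per the labels. Which aligner and caller were run is not given in the sources used here. Peak heights are a signal that the authors scaled to library depth. Low heights were whole multiples of 1 step (tolerance 0.05) in 100% of values, which gave the tags. The deposited footprint and cut-rate values are p-value or q-value columns (0.01 in every footprint entry, below 0.05 for cut rates). Read counts under single sites are unknown, and heights carry no counting interval.

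The longer peak list of each library was used. Peaks were merged at 1 bp of overlap with Python 3.11.15, numpy 2.4.6 and pysam 0.24.0, checked against bedtools 2.31.1 and tested on simulated data. A site without a peak has height 0. Replicates were tested by exact sign-flip permutation. Sites named are the own-promoter sites and the 3 highest distal consensus sites of each gene; other genes named are the 3 highest and the uncalled genes of each list, and the 2 most like each member; some listed genes are not reported by name here. The Id3 site at +6.4 kb and Il7r were chosen after their values were seen. The members and lists were chosen with earlier results of these data known. Like-site shares use sites of the same class within 1.25 times in replicate 1 height, like windows a length within 1.25 times, and like 5' ends CpG ratios within 0.1 and GC within 5 points over 500 bp on each side. Shorter lists, other consensus rules, promoter and locus windows and left-out libraries were tried.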

Additional observations from a re-analysis of the deposited data

Results flagged for a closer look

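Each own-promoter height called in all 4 libraries, each named site called in all 4, and the number of sites at each locus was checked for a library far from the other 3. Of 27 sets of 4 values, 2 stood out, and chance flags about 1 in 20. The Id3 promoter was 1.99 in replicate 3 against a mean of 1.55 in the other 3. The Id3 distal site at +20.2 kb was 1.14 in replicate 4 against 1.57. In both cases the gap to the nearest library made up most of the range (0.907 and 0.87). Replicates 3 and 4 are the libraries without a Cd8a promoter peak, and the part of that in these values was not tested.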

How the results depend on the processing

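All 8 genes kept a consensus promoter site with at least 2 libraries, with replicates 1 and 2 only and with promoter windows of 0.5 and 2.5 kb. The count was 7 with all 4 libraries needed, with 50% reciprocal overlap and at the 5' end only, each without Zeb2, and 6 with the shorter lists, without Id1 and Zeb2. It was also 7 with any replicate left out, without Id1 when replicate 4 was and without Zeb2 otherwise. The order of the 8 mean promoter heights was the same over the median of all peaks, by percentile and with the shorter lists. The 37 consensus sites became 22 with all 4 libraries needed, 61 with at least 2, 57 with replicates 1 and 2 only and 89 with 100 kb of flank, and 22 to 35 when each replicate was left out in turn (23 without replicate 3, 22 without replicate 1 or 2). The median per locus became 3, 8, 7.5 and 8.5 in these settings, and 3 to 5 with a replicate left out. Both counts change with which and how many libraries are needed and with the bases searched. The lower height of other distal sites (0.87 on the log2 scale) reversed to -0.13 with sites of at least 2 libraries and otherwise ran from 0.22 (replicates 1 and 2 only, added after seeing the data) to 0.90. The promoter to distal difference (0.30) ran from 0.01 (without replicate 4) to 0.96 (at least 2 libraries). The cause was not tested. The mean number of footprints, 155, became 308 with 100 kb of flank. The share of sites with an E-box, 56.8%, became 86.5% over whole sites, which are longer than 150 bp. No paired analysis was possible because there is a single group. Replicate 4, with 20647 peaks and 24.3 M tags, limits what is called in all 4 libraries, and the part of depth in this was not tested.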
